A study of Mus musculus with 4 samples.

Results

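The cytosolic ribosomal protein genes of the mouse were followed through single-cell RNA sequencing of sorted brain cells after stroke. The members were all features whose symbol begins with Rpl or Rps and a digit, together with Rpsa, Rplp0, Rplp1 and Rplp2, without names of the -ps pseudogene form and without the Rps6k kinases. This rule took 86 of the 32286 features: 48 of the large subunit, 33 of the small subunit, the 3 proteins of the stalk and 2 genes that share the prefix but are not proteins of the mature ribosome. Those 2 genes are Rpl7l1, a factor of large subunit assembly, and Rps19bp1, a nucleolar protein that binds Rps19. Members lay on 19 chromosomes, and Rpl36a, Rpl39, Rpl10 and Rps4x lay on the X chromosome.

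Each cytosolic ribosome carries 1 copy of nearly all of these proteins, so their mRNAs are made in roughly matched amounts and are among the most abundant mRNAs of a growing cell. Most of these mRNAs begin with a 5' terminal oligopyrimidine tract (a TOP), a C followed by a run of C and T, through which the kinase mTOR and the RNA-binding protein Larp1 control how much of the mRNA is translated and stored. A few genes have a close relative (Rps27l beside Rps27, Rpl22l1 beside Rpl22, Rpl36al beside Rpl36a) whose product can take the same place in the ribosome. Microglia are the resident macrophages of the brain, and after injury they enlarge, divide and change their gene expression.

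The mice carried the Tmem119-2A-CreERT2 and Ai6 alleles, so that cells in which the microglial gene Tmem119 drives Cre express the green protein ZsGreen. All 4 groups share both alleles. Females and males were each given a sham operation or a stroke by tying off the right middle cerebral artery for good, which makes 4 groups. Wherever 4 values follow each other with no group named, they stand for sham females, stroke females, sham males and stroke males. ZsGreen-positive live cells of the operated hemisphere were sorted on day 3, and each group was 1 pool of 4 mice, so that mice within a group cannot be told apart and no group has a replicate. Age is not given in the labels. After quality control 18045 of 20437 barcodes remained, 4007, 4982, 4957 and 4099 in that order, with median depths of 5991, 9786, 5647 and 9430 UMIs (unique molecular identifiers, 1 for each captured mRNA molecule). The male sham pool held no barcode under 4198 UMIs while the others reached down to 500 or 501, and 34 kept barcode sequences occurred in more than 1 pool. Cells were grouped without using the members and named from marker genes, and all 12 microglia markers were detected in the microglia-like cells, which numbered 3179, 3024, 4016 and 2778, or 79.3%, 60.7%, 81.0% and 67.8% of the kept cells, so the sorted cells were not all microglia. A further 938 cells led by Spp1 stayed unnamed, because the macrophage gene Fn1 stood among their top 10 genes.

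The start of the gene, where the TOP lies, is shown for members of contrasting behaviour. Promoters in RefSeq (GRCm38.p6) were matched to 66 of the 86 members, giving 78 promoters. Each line gives 30 bases before and 30 bases after the annotated start, 5' to 3' on the strand of the gene, with the longest run of C and T in capitals. Rps18, Rpl22l1 and Rps6 are members with a long run at the start and a large change after stroke, and Rpl35 has the longest run of the lines shown.
Rps18, chr17:33955636-33955695, minus strand: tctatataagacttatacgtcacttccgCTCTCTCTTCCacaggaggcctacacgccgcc
Rpl22l1, chr3:28805478-28805537, plus strand: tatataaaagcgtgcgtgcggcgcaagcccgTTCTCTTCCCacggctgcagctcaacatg
Rps6, chr4:86857338-86857397, minus strand: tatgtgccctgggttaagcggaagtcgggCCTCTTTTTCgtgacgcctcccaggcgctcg
Rpl35, chr2:39005102-39005161, minus strand: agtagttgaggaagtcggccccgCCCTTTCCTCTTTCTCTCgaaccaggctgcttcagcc
Rps27 has a run of the same kind but a small change, and Rps2, the member with the largest change, has a shorter run after the annotated start. Rpsa, Rps19, Rpl12 and Rpl41, also among the largest changes, have no run of 8 or more in their windows and are not shown.
Rps27, chr3:90213619-90213678, minus strand: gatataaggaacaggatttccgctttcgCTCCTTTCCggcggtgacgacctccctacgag
Rps2, chr17:24720033-24720092, plus strand: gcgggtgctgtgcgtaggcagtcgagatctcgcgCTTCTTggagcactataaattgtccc
Rps4x, on the X chromosome, and the assembly factor Rpl7l1 have no run of 8 or more in this window, and neither passed the test after stroke.
Rps4x, chrX:102189362-102189421, minus strand: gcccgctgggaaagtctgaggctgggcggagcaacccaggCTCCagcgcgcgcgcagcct
Rpl7l1, chr17:46782627-46782686, minus strand: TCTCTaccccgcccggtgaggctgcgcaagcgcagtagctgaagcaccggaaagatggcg

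A run of at least 8 pyrimidines within 30 bases of the start was found in 47.4% of the 78 member promoters and in 22.9% of all 32851 promoters of the table. A C followed by at least 4 pyrimidines began exactly at the annotated start in 17.9% of member promoters against 2.51% of all, and within 5 bases of it in 41.0% against 18.4%. The 6-base motif CGGAAG, or its reverse complement CTTCCG, occurred within the 300-base promoter in 60.3% of member promoters against 16.9% of all, and CACGTG in 10.3% against 7.15%. Within the members, the median log2 change after stroke was 1.02 for the 35 tested genes with a pyrimidine run and 0.87 for the 29 without. The 29 include Rpl7l1 and Rps19bp1, which are not proteins of the mature ribosome. For a TOP exactly at the start the medians were 0.99 (14 genes with it) and 0.94 (50 without). For CGGAAG or CTTCCG they were 0.97 (44 with) and 0.88 (20 without). None of these differences was tested. These are matches of letters near annotated starts, and 20 members had no promoter in the table.

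Microglia-like cells of the stroke pools gave a larger part of their mRNA to ribosomal proteins. The members took 8.62% of all UMIs in sham females and 14.05% in stroke females, and 9.07% and 13.9% in males. Both stroke pools lay well above both sham pools, and the pools of the same treatment lay close together. A microglia-like cell held on average 542 member UMIs in female sham and 537 in male sham against 1489 and 1447 after stroke. In cells thinned to an equal depth of 3000 UMIs, 67.4% of female stroke cells and 62.1% of male stroke cells lay above the 90th percentile of the sham cells of the same sex, at 11.6% and 11.9% of UMIs. Only 6.24% and 7.63% of the stroke cells lay below the sham median.

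**Figure D1:**
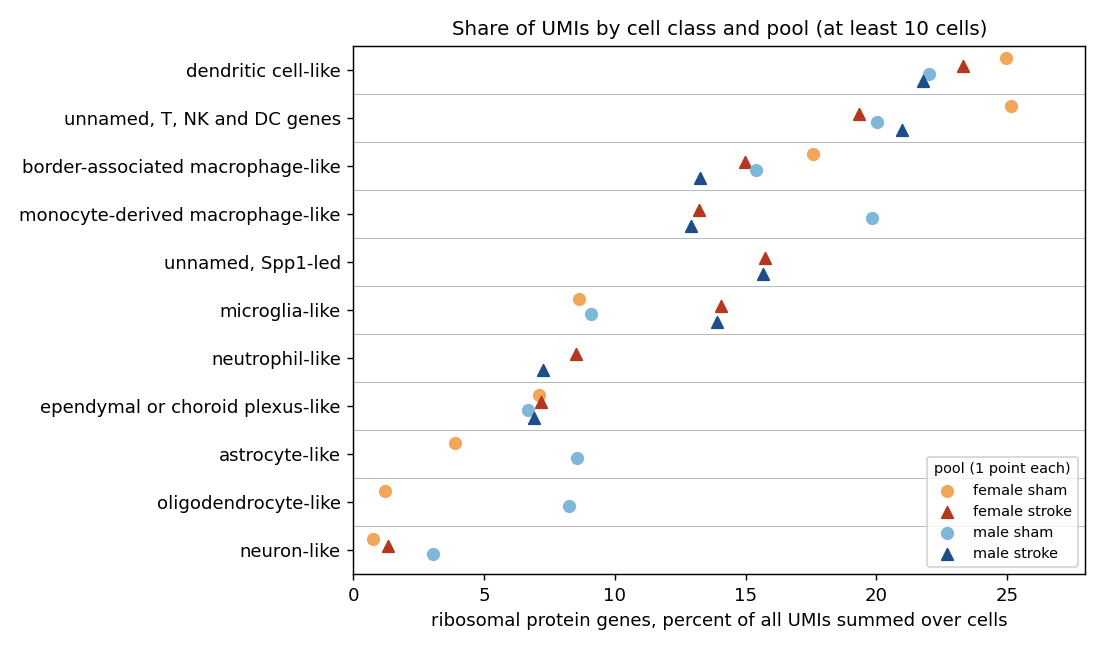
Share of UMIs from the cytosolic ribosomal protein genes (x axis, percent of all UMIs summed over the cells) by cell class (y axis), with 1 point for each pool that held at least 10 cells of the class. Microglia-like cells sit near 9% in the sham pools and near 14% in the stroke pools, while dendritic cell-like cells lie above 21% in all 4 pools.

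The cells of the stroke pools also differed in other measures of RNA. Median depth was 6173 and 5415 UMIs in sham and 8181 and 8050 in stroke microglia-like cells. The median mitochondrial share was 2.08% and 1.19% against 4.89% and 4.43%, and the nuclear RNA Malat1 took 3.99% and 4.43% against 1.26% and 1.46%. The member share was higher in deeper cells of every pool: from the shallowest to the deepest 25% of cells it went from 6.91% to 9.49% in sham females, from 8.34% to 10.1% in sham males, from 10.49% to 15.2% in stroke females and from 10% to 15.2% in stroke males. The shallowest 25% of female stroke cells, at a median of 3548 UMIs, lay above the deepest 25% of female sham cells, at 8620 UMIs. In males the shallowest 25% of stroke cells and the deepest 25% of sham cells were nearly equal. Among cells with 2 to 4% mitochondrial UMIs, the member share was 8.95% and 10.8% in sham against 12.96% and 12.86% in stroke. The part of the Malat1 difference in the result was not tested.

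Tested gene by gene on pool sums, 81 of the 84 members tested rose after stroke and 0 fell (edgeR quasi-likelihood test on 4 pools with a sex term, adjusted p below 0.05). Over all 13975 genes tested, 22.7% rose and 22.2% fell. The median log2 change of the 84 members was 0.92, with an interquartile range of 0.79 to 1.07, beside -0.05 over all genes. All 46 large subunit members tested rose (median 0.91), as did 32 of 33 small subunit members (median 0.99) and the 3 stalk proteins (median 0.92). The 2 members outside the mature ribosome did not pass. In 82 of 84 members both stroke pools lay above both sham pools, which held for 34.4% of all genes. The 2 members that were not tested were Rpl10l, a relative of Rpl10 known from testis, with 1 UMI in all microglia-like cells, and Rpl3l, a relative of Rpl3 known from muscle and heart, with 0.

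The size of the rise moved with the scaling. With library totals in place of TMM factors (trimmed means that set the middle of all genes level), the median over all genes moved from -0.05 to -0.31, the members' median to 0.65, and the split to 77 members higher and 2 lower, Rpl7l1 and Rps19bp1. Over all genes the rises then made up 26.3% of the calls in place of 50.6%. Without the female stroke pool, and likewise without the male stroke pool, 70 members passed. The test has 1 residual degree of freedom and takes its spread from all genes, so that its small p-values rest on 2 pools per treatment. When microglia-like cells with any UMI of 9 genes of monocyte-derived macrophages were left out, 81 members rose as before. The summed level of the 13 macrophage markers in microglia-like cells was 396 and 432 CPM in sham against 1063 and 1001 in stroke, and 11 of the 13 were higher in both stroke pools.

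**Figure D2:**
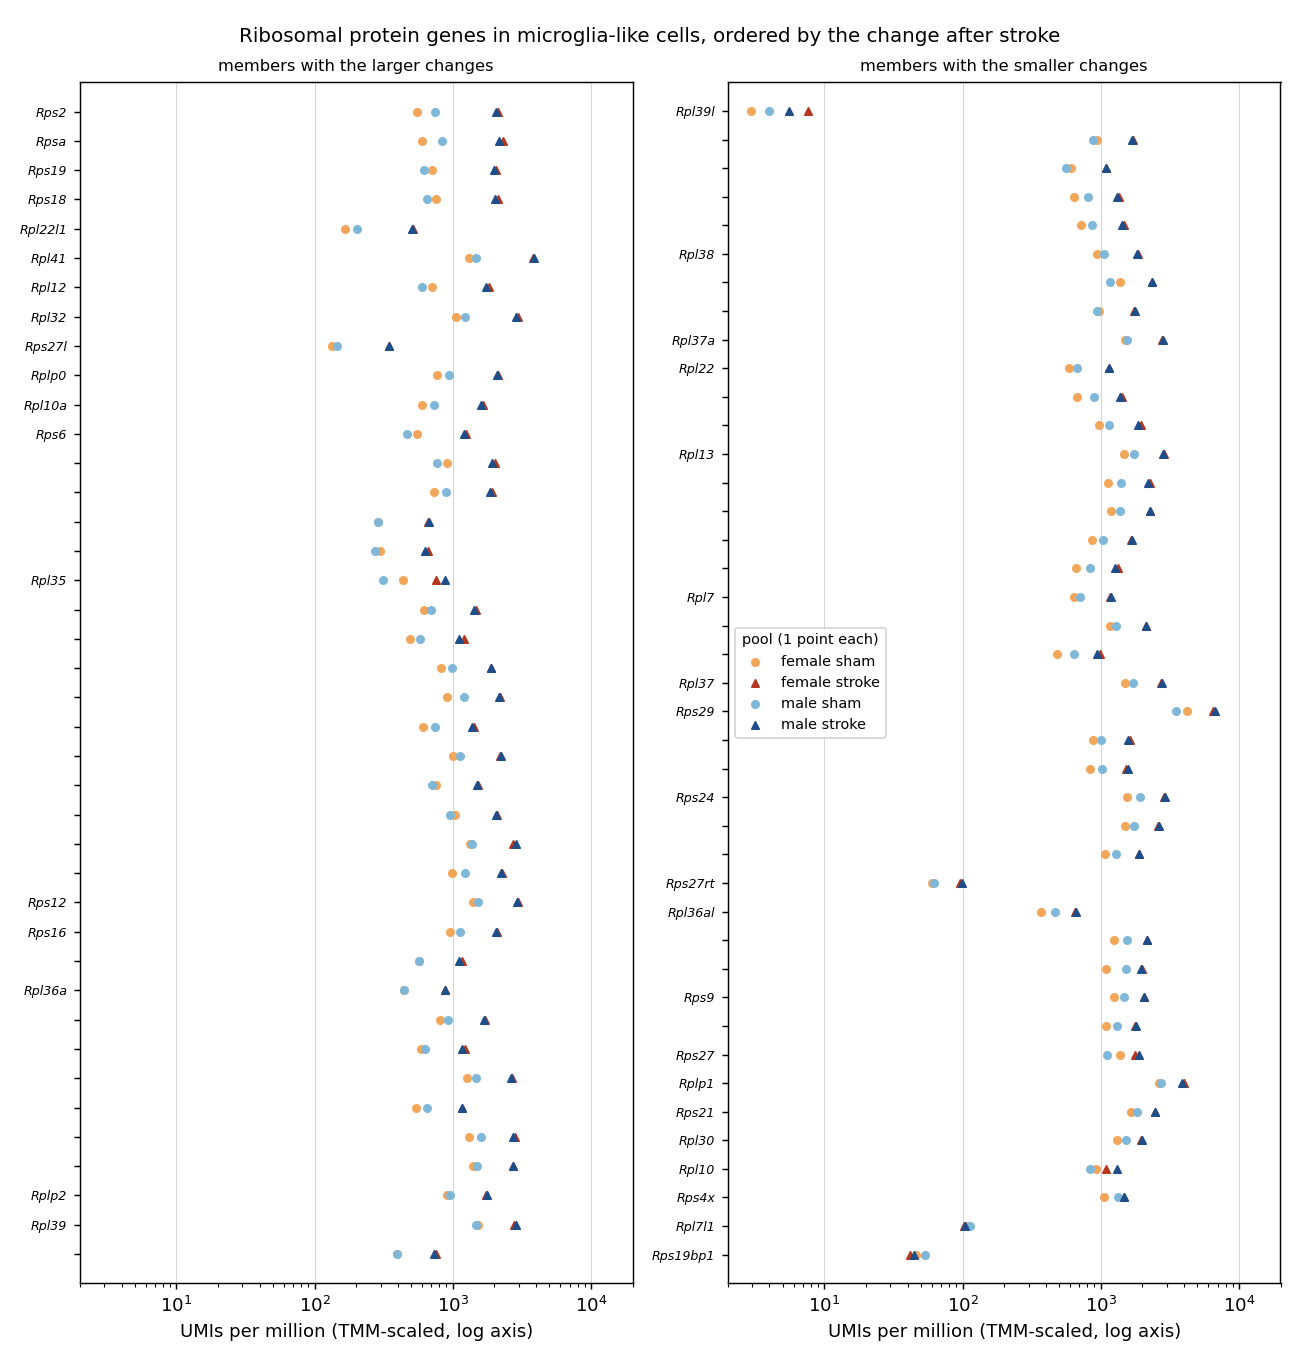
Level of the tested members in microglia-like cells, apart from a few not reported here (x axis, CPM after TMM scaling, log axis), ordered by the log2 change after stroke, from the top of the left panel to the bottom of the right panel, with 1 point per pool and names for selected members. The triangles of the stroke pools lie to the right of the circles of the sham pools for nearly every gene, by most for Rps2 and Rpsa, and not for Rpl7l1 and Rps19bp1 in the last lines of the right panel.

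Small subunit proteins headed the list. Rps2, a protein near the mRNA entry channel, stood at 552 CPM (UMIs of a gene scaled to a total of 1000000, here after TMM) in sham and 2123 in stroke females, and at 744 and 2052 in males. The stroke pools of Rps2 lay close together and far above both sham pools, with a log2 change of 1.70 ± 0.17 (SE, edgeR adjusted p = 3.2e-23). Rpsa, which lies next to Rps2 on the small subunit and is also known as a laminin receptor, stood at 594, 2327, 831 and 2161 CPM, a log2 change of 1.67 ± 0.17 (edgeR adjusted p = 2.6e-22). Rps19, the protein most often mutated in Diamond-Blackfan anaemia, stood at 711, 2039, 616 and 1987 CPM (log2 change 1.604). Rps18 stood at 753, 2122, 648 and 2024 (log2 change 1.57), and Rps6, whose phosphorylation is the usual readout of mTOR signalling, at 553, 1240, 468 and 1209 (log2 change 1.27). Rps2 and Rpsa had the larger change in the female pools (1.94 and 1.97 on the log2 scale), beside 1.46 and 1.38 in the male pools, whereas Rps19 and Rps18 had the larger change in the male pools (1.69 and 1.64 against 1.519 and 1.496). Groups of 1 pool give no test of that difference.

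Of the large subunit, Rpl22l1, Rpl41, Rpl12 and Rpl32 were the leading genes. Rpl41, the smallest ribosomal protein, stood at 1299, 3786, 1473 and 3894 CPM, a log2 change of 1.47 ± 0.17 (edgeR adjusted p = 3.0e-17). Rpl12, which sits at the base of the stalk, stood at 705, 1815, 595 and 1728 (log2 change 1.45), and Rpl32 at 1048, 2982, 1223 and 2853 (log2 change 1.37). For each of these genes the lower stroke pool was above the higher sham pool by more than the sham pools differed. The stalk, which recruits elongation factors, showed unequal changes: Rplp0, its anchor, rose by 1.30 on the log2 scale, Rplp2 by 0.92 and Rplp1 by 0.56.

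The smallest called rises were those of Rps27 (0.57), Rplp1 (0.56), Rps21 (0.51), Rpl30 (0.48) and Rpl10 (0.45). Rpl10, which joins the large subunit in the last step of its assembly, stood at 922 and 837 CPM in sham and 1090 and 1313 in stroke. Rps4x, an X-linked small subunit protein, stood at 1053, 1474, 1343 and 1462 CPM. The male sham value of Rps4x came close to the stroke values, and its log2 change of 0.30 ± 0.16 did not pass (edgeR adjusted p = 0.11). Of the other X-linked members, Rpl10 had the small change above, and Rpl36a and Rpl39 had log2 changes of 0.99 and 0.92. Rps19bp1 stood at 46.2, 41.9, 53.6 and 44.5 CPM (log2 change -0.21, adjusted p = 0.24), and Rpl7l1 at 107, 102, 112 and 105 (log2 change -0.09, adjusted p = 0.65). These last 2 genes were lower in both stroke pools than in both sham pools, by less than the test resolves.

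The most abundant member in microglia-like cells was Rps29, a zinc-binding small subunit protein, at 4244, 6447, 3523 and 6742 CPM. It made up 5.51%, 4.19%, 4.16% and 4.42% of member UMIs. Rplp1, Rpl41, Rps24, Rpl13, Rps12, Rpl37, Rpl37a and Rpl39 were among the next most abundant. The 10 leading members of each pool held 24.6%, 22.7%, 23.8% and 22.9% of member UMIs, and small subunit genes held 44.4%, 44.5%, 43.7% and 44.4%. Ribosomal protein genes have many processed pseudogenes, and reads that fit several copies may be lost or split, so levels between members are less certain than the change of each.

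The mix of related genes differed between treatments as well. Rpl22l1 rose by 1.49 ± 0.15 on the log2 scale and Rpl22 by 0.87 ± 0.16. Of the UMIs of both genes together, Rpl22l1 held 22.0% in female sham and 23.2% in male sham but 31.2% and 30.8% in the stroke pools. Rps27l, a relative of Rps27 known as a target of p53, rose from 133 and 145 to 343 and 346 CPM (log2 change 1.31), and its part of the pair with Rps27 went from 8.76% and 11.6% to 16.2% and 15.4%. Rpl7l1 held 14.3% and 13.8% of the pair with Rpl7 in the sham pools and 8.08% and 8.13% in the stroke pools. Rpl36al, the autosomal relative of the X-linked Rpl36a, held 45.8% and 51.0% in sham and 42.8% and 42.8% in stroke. In each of these 4 pairs both stroke pools lay on the same side of both sham pools. Rpl39l, a relative of Rpl39, was rare: it gave 66, 221, 101 and 147 UMIs, or 0.193%, 0.270%, 0.269% and 0.194% of its pair, with stroke and sham overlapping. Rps27rt, an intronless copy of Rps27, held 4.18%, 5.16%, 5.30% and 4.93% of its pair with Rps27, also with overlap, and its reads may partly be those of Rps27. With 1 pool per group, these shares carry counting error only.

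**Figure D3:**
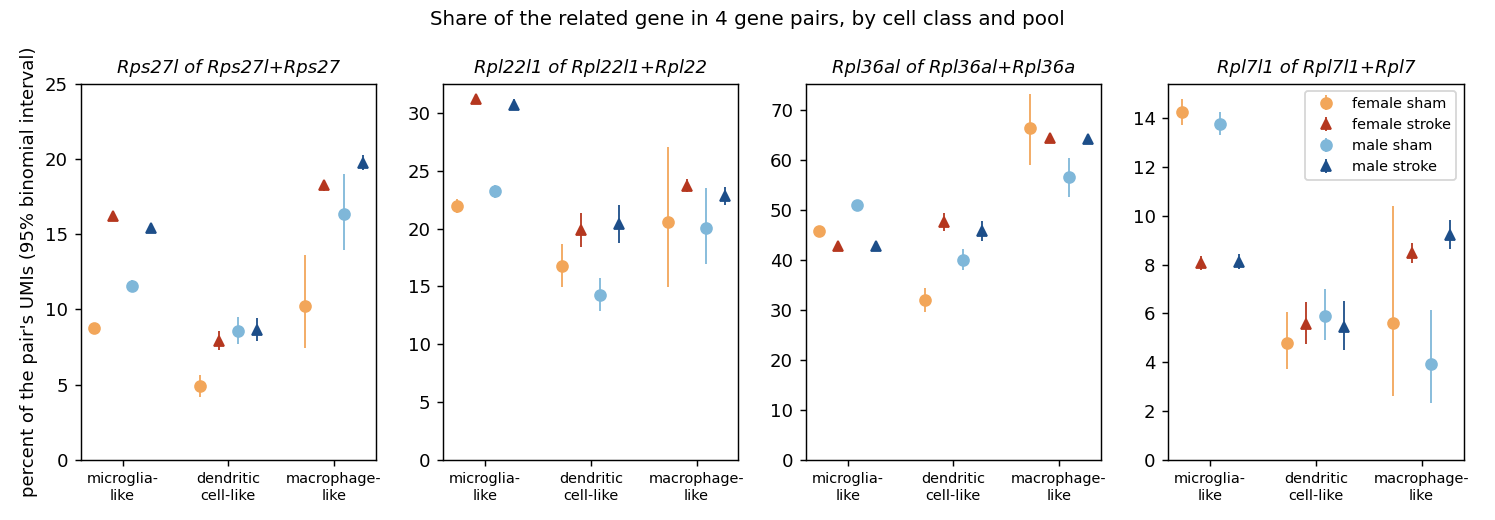
Share of the related gene among the UMIs of 4 gene pairs (y axis, percent, with exact 95% binomial intervals that cover counting error only) in microglia-like, dendritic cell-like and monocyte-derived macrophage-like cells, with 1 point per pool. In microglia-like cells the stroke pools are higher for Rps27l and Rpl22l1 and lower for Rpl7l1, and Rpl36al stands near 64% in the macrophage-like cells of the stroke pools against 42.8% in microglia-like cells.

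Other genes of the translation machinery were read in the same fit, in which 22.7% of all genes rose and 22.2% fell. The 3 ribosomal proteins that carry other names all rose, among them Rack1 (log2 change 1.31) and Fau (0.55). All 20 translation-related genes listed as having a TOP rose, with a median of 0.75; among them were Eef1a1 (0.75) and Eef2 (0.83), the elongation factors, Tpt1 (0.75) and the nucleolar chaperone Npm1 (0.98). The largest change in that list, 3.42, was that of the intermediate filament gene Vim, which is also one of the macrophage markers above. Of 23 initiation factors 15 rose and 0 fell (median 0.46), led by Eif3a (0.96), and library totals gave 10 higher and 3 lower (median 0.20). Of 25 genes of ribosome assembly and rRNA synthesis 6 rose and 0 fell (median 0.12), a share near that of all genes. Among the 6 were the nucleolar protein Ncl (0.78) and the chaperone Hspa8 (0.84). With library totals 2 of the 25 were higher and 2 lower, and the median turned to -0.15. Of 78 mitochondrial ribosomal protein genes 36 rose and 1, Mrps35, fell (median 0.28), with Mrpl33 (1.23) at the top. Library totals gave 14 higher and 12 lower for the mitochondrial list, 17 higher and 0 lower of the 20 TOP genes, and 2 higher and 0 lower of the 3 ribosomal proteins under other names.

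Of 17 genes that control translation of TOP mRNAs 3 rose and 3 fell, with a median of -0.04. These are no larger parts than over all genes, where 22.7% rose and 22.2% fell. Eif4ebp1, the translation repressor that mTOR inactivates, rose by 0.43, Larp1 by 0.33 and Tsc2 by 0.46. Ddit4 fell by 1.61 on the log2 scale, from 24.4 and 27.4 to 8.30 and 8.66 CPM, and Deptor and Sesn1 fell by 0.82 and 0.56. Tsc1 (-0.24), Sesn2 (0.11) and Akt1s1 (-0.08) did not pass. Whether mTOR signalling changed was not tested. Mtor itself stood at 10.19, 14.04, 10.96 and 12.83 CPM (log2 change 0.34, edgeR adjusted p = 0.093) and Myc at 24.27, 25.68, 27.03 and 24.60 CPM (-0.03, adjusted p = 0.90). With library totals 0 of these 17 rose and 8 fell, so the rises of this list depend on the scaling. The lists were chosen with results of these data known.

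In dendritic cell-like cells 5 of 83 members passed the test after stroke, but sham and stroke cells of this class were largely different subsets. At a finer clustering (Leiden resolution 1.6) a cluster led by Mgl2 and Cd209a held 55, 25, 112 and 6 cells, and one led by Ifitm1 and carrying Klrd1 and Ccr7 held 0, 108, 0 and 80. A change within the class and a change of subset therefore cannot be told apart in the values that follow. The cells numbered 55, 122, 112 and 84, and the members took 24.9% of their UMIs in sham and 23.3% in stroke females, and 22.0% and 21.8% in males. The sham and stroke pools overlapped, and both sexes were slightly lower after stroke. The 5 members rose and 0 fell, against 10.2% rising and 9.38% falling among the 8132 genes tested, and the median log2 change was 0.03. The 5 were Rpl36al (0.57), Rps27l (0.55), Rps19 (0.50), Rps6 (0.44) and Rpl41 (0.40). DESeq2 and library totals called 0 rises, and 12 members had an unadjusted p below 0.05.

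The dendritic cell-like cells of the sham pools carried more microglial RNA. The 12 microglia markers summed to 3922 and 10410 CPM there and to 1112 and 1622 in stroke, beside 33584 and 32121 in sham microglia-like cells. When dendritic cell-like cells with over 5000 CPM of these markers were left out, 35, 115, 66 and 80 cells remained. The member shares became 27.5% and 27.3% in sham against 23.5% and 22.5% in stroke, with 0 members higher, 6 lower and a median log2 change of -0.28. The direction of the median in dendritic cell-like cells thus turned with the choice of cells, and the part of the microglial RNA in the first result was not tested further. The shares over all genes in the remaining cells are not given here, so the 0 and 6 are not read as a result about the members.

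The difference between the classes was tested as an interaction of class and treatment, in which the dendritic cell-like sham and stroke cells again came mostly from different finer clusters. In 71 of 84 members the change after stroke was larger in microglia-like than in dendritic cell-like cells, in 0 it was smaller, and the median difference was 0.86 on the log2 scale (edgeR with the pool as a block). Over all 13225 genes 10.7% had a larger and 3.98% a smaller change, and the median over all genes was 0.15. Rpsa (1.58), Rps2 (1.497) and Rpl12 (1.38) were among the largest differences, and Rpl36al (0.07), Rps9 (0.34) and Rps27 (0.37) did not pass. Without the dendritic cell-like cells rich in microglia markers 80 members passed. Without the female stroke pool 15 passed and without the male stroke pool 9, while the median differences were 0.91 and 0.79.

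**Figure D4:**
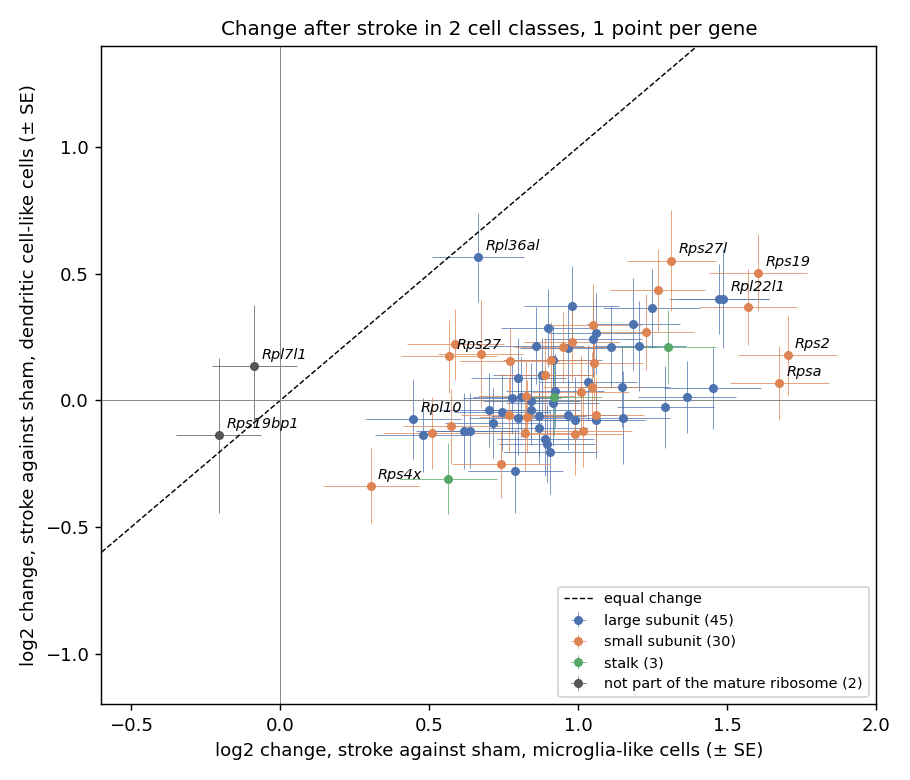
Log2 change between stroke and sham of the members tested in both classes, apart from a few not reported here, in microglia-like cells (x axis) and in dendritic cell-like cells (y axis), with standard errors of the edgeR fit and a dashed line of equal change. Nearly all points lie below the line, with Rps2 and Rpsa far to the right, and Rpl36al lies close to it.

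In level, dendritic cell-like cells stood above microglia-like cells. With the pool as a block, 79 of 84 members were higher in dendritic cell-like cells and 0 lower (median log2 difference 1.42), against 14.8% and 11.9% of all 13225 genes. That fit averages the class difference over sham and stroke, although the interaction above passed for 71 of the 84 members. Rpsa stood at 3725 and 3661 CPM in dendritic cell-like against 509 and 735 in microglia-like cells of the female and male sham pools. In the stroke pools Rpsa stood at 4311 and 3686 against 2046 and 1905. In 82 of 84 members the dendritic cell-like level was the higher one in each of the 4 pools. The same count was not made over all genes, so it is not read as a result about the members. Rps27 stood at 5580, 5450, 3545 and 4902 CPM in dendritic cell-like cells against 1187, 1556, 978 and 1673 in microglia-like cells. That is a log2 difference of 1.86 ± 0.21 (edgeR adjusted p = 9.2e-04), the largest of the members. Rpsa (1.80), Rps16 (1.77), Rpl38 (1.74) and Rps24 (1.73) followed. Rplp1 (0.76), Rpl22l1 (0.68), Rpl7l1 (0.34) and Rps19bp1 (0.20) had smaller averaged differences that did not pass. For Rplp1 and Rpl22l1 the gap was wider in the sham pools than in the stroke pools. Rplp1 stood at 5752, 4707, 4898 and 4133 CPM in dendritic cell-like against 2252, 3533, 2408 and 3431 in microglia-like cells. Rpl22l1 stood at 421, 513, 325 and 495 against 142, 454, 179 and 447. Rpl39l gave 0, 1, 2 and 0 UMIs in dendritic cell-like cells, fewer than the 3 that a count of 0 allows, so no fold is given for it.

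Monocyte-derived macrophage-like cells of the stroke pools (1109 and 583 cells) gave 13.2% and 12.9% of UMIs to the members, slightly less than microglia-like cells of the same pools. Gene by gene with TMM scaling 60 of 85 members were higher in macrophage-like cells and 12 lower (median log2 difference 0.21, against 36.5% and 37.3% of all 13290 genes), but with library totals 17 were higher and 42 lower, with a median of -0.10. The direction of the family's median thus turned with the scaling. The shares over all genes with library totals are not given here, so the 17 and 42 are not read as a result about the members. Of the members higher in macrophage-like cells and detected in both classes, Rpl36al had the largest difference, at 1166 and 1151 CPM in macrophage-like cells against 539 and 538 in microglia-like cells (log2 difference 1.11 ± 0.05, edgeR adjusted p = 2.5e-18). Rps27l stood at 579 and 624 against 282 and 282 (1.09), and Rps27 at 2595 and 2536 against 1455 and 1547 (0.77). Rpl12 (-0.40), Rpl10a (-0.34), Rplp1 (-0.33) and Rps12 (-0.33) were lower in macrophage-like cells.

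The mix of Rpl36a and Rpl36al differed between the classes. Rpl36al held 64.4% and 64.2% of the pair in macrophage-like cells of the stroke pools, 42.8% in microglia-like cells of both, and 47.6% and 45.8% in dendritic cell-like cells. Rpl3l was not detected in microglia-like cells: it gave 46 and 16 UMIs in 35 and 15 macrophage-like cells of the female and male stroke pools and 0 UMIs among 60969982 in microglia-like cells of both pools. Set against a floor of 3 UMIs over both pools, Rpl3l was at least 51.7-fold higher in macrophage-like cells, at 2.54 CPM (exact Poisson interval 1.95 to 3.26, counting error only). It also gave 7, 5, 12 and 3 UMIs in the 19, 41, 39 and 28 cells of an unnamed cluster. That cluster scored best for monocyte-derived macrophage markers. Its leading genes included T or NK cell genes, the dendritic cell gene Ccr7, and Ear2 and Itgal. At the finer clustering a cluster led by Ear2 and Itgal was named monocyte-derived macrophage-like and held 7, 9, 26 and 4 cells. A T or NK cell-like cluster held 14, 20, 13 and 19. Which cells of the unnamed cluster carried Rpl3l was not tested. Rpl39l went the other way, with 22 and 5 UMIs in macrophage-like cells against 221 and 147 in microglia-like cells, and 122 and 75 UMIs in the unnamed Spp1-led cluster.

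Other classes were read by their shares alone. Ependymal or choroid plexus-like cells lay between 6.66% and 7.18% in all 4 pools. Neutrophil-like cells had 8.51% and 7.26% in the stroke pools, where they were numerous enough to read. Border-associated macrophage-like cells had 17.6% and 15.4% in sham and 14.96% and 13.3% in stroke, from 14 to 38 cells per pool. The Spp1-led cluster had 15.7% in both stroke pools, above the microglia-like cells of the same pools. Neuron-like cells had 0.733% in female sham and 3.05% in male sham. Their median per cell was 0.440% and 0.504%, at 5087 and 5699 UMIs, and the 90th percentile of cells was 0.777% and 6.43%. In oligodendrocyte-like cells the median was 0.503% at 2171 UMIs in female sham (248 cells) but 6.79% at 6360 UMIs in male sham (19 cells). Astrocyte-like cells split in the same way, with 0.842% at 2396.5 UMIs (36 cells) and 7.99% at 6393 UMIs (27 cells). The low female sham medians of oligodendrocyte-like and astrocyte-like cells thus did not hold in the male sham pool.

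Within microglia-like cells the member share moved with the state of the cell. States were read as the summed UMIs of 7 gene lists in cells thinned to 3000 UMIs, comparing the 25% of cells of each pool with the most UMIs of a list with the 25% with the fewest, or a larger group where many cells tied. Cells with the most UMIs of homeostatic genes (P2ry12, Tmem119 and others) had lower member shares than those with the fewest: in females 6.95% against 10.6% (sham) and 10.6% against 15.5% (stroke), and in males 7.40% against 11.04% (sham) and 10.3% against 15.6% (stroke). The direction was the same in all 4 pools, and the most homeostatic 25% of stroke cells lay near the least homeostatic 25% of sham cells. The differences were -3.67, -4.89, -3.65 and -5.25 percentage points, and -3.62, -4.76, -3.59 and -5.13 with the list's own UMIs left out of the total.

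Cells rich in UMIs of the Spp1 and lipid response list (Spp1, Lpl, Apoe and others) had higher member shares in every pool, by 1.598, 2.79, 1.97 and 3.11 percentage points. The interferon list went the same way, by 0.306 and 0.816 points in sham and 1.80 and 2.22 in stroke. For immediate early and heat shock genes the pools split by treatment: the member share of the upper less that of the lower 25% was 0.186 and 0.172 points in sham and -2.253 and -3.204 points in stroke. The chemokine list gave 0.321 and -0.059 points in sham and 0.903 and 1.14 in stroke. In the stroke pools these groups also differed in depth before thinning. The median was 11418 and 12831 UMIs in the upper against 6612 and 6871 in the lower 25% by the Spp1 list, 6650 and 6330 against 11392.5 and 12022 by the immediate early list, and 5824 and 5855 against 13965.5 and 14556 by the homeostatic list. In each of these lists the deeper group had the higher member share, and the part of depth in the results was not tested beyond the thinning.

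**Figure D5:**
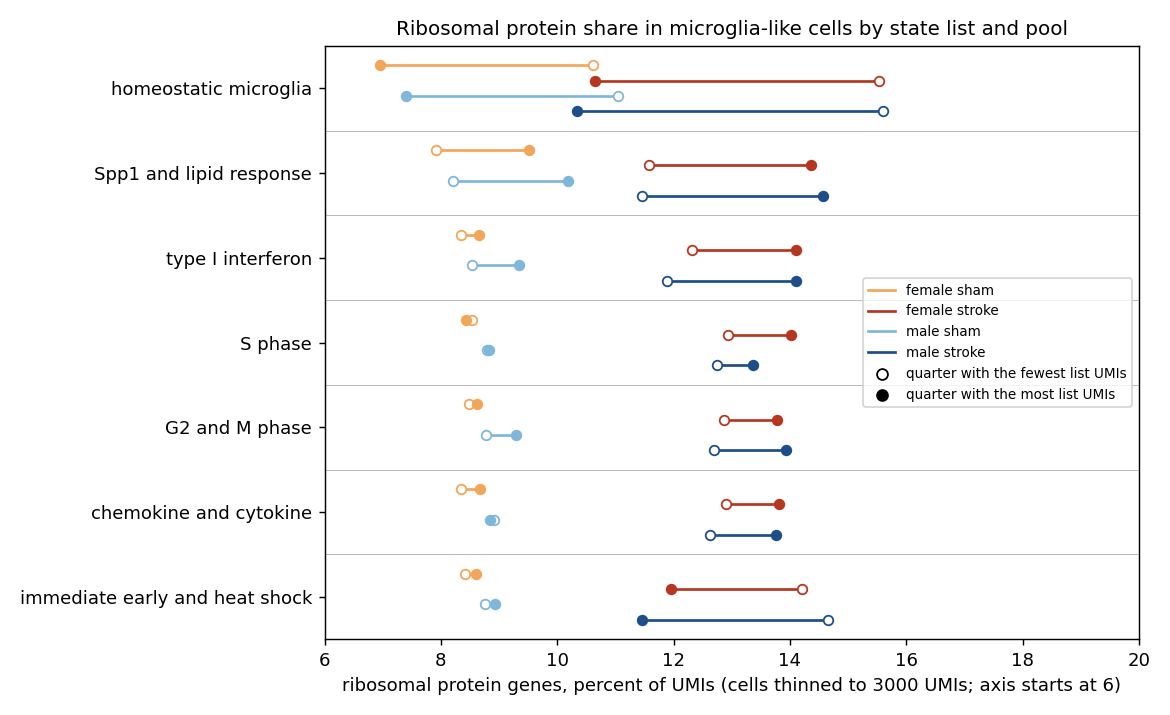
Share of UMIs from the ribosomal protein genes (x axis, percent, starting at 6) in microglia-like cells thinned to 3000 UMIs, for the 25% of cells with the fewest (open circle) and with the most (filled circle) UMIs of each state list, with 1 line per pool. Homeostatic lists run from high to low in every pool, the Spp1 list runs from low to high, and the immediate early list runs from high to low in both stroke pools and slightly upward in both sham pools. For G2 and M phase in sham the groups are the cells with 0 UMIs and those with at least 1.

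Sham cells lay mostly in a cluster led by P2ry12, P2ry13 and X-linked RNAs in females (87.9% of the pool's microglia-like and Spp1-led cells) and in one led by Hpgd and Cst3 in males (93.0%), with member shares of 8.001% and 8.87%. Stroke cells lay mostly in a female cluster led by Fosb, Ramp1 and Cst7 (14.2%) and a male cluster led by Npnt and Cryba4 (13.5%), so that different clusters hold the class in the treatments. The 533 female stroke cells that remained in the P2ry12-led cluster had 10.54%, and the 195 female sham cells that fell into the Fosb-led cluster had 13.2%. Within a cluster stroke was the higher of the pair in each of these cases. The shares of the cycling cluster were 14.6% and 14.7% in stroke and 10.9% in the 50 male sham cells found there.

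Cycling cells carried slightly more of the members. Among microglia-like cells of the stroke pools thinned to 3000 UMIs, 895 of 2772 female and 716 of 2529 male cells had at least 3 UMIs of cell cycle genes, and 112 and 96 of them had exactly 3. Against cells with 0 such UMIs, 48 of 84 members were higher and 2 lower (edgeR with the pool as a block), beside 24.8% and 20.4% of all 10488 genes, and the median difference was 0.14 on the log2 scale. Rps27l stood apart, at 394 and 379 CPM in cycling cells against 209 and 200 (log2 difference 0.92 ± 0.06, edgeR adjusted p = 4.2e-25). Rps19bp1 (0.49), Rps2 (0.45) and Rpsa (0.45) followed, and Rps27 (-0.23) and Rps9 (-0.20) were the 2 lower members. With cells of at least 3 cell cycle UMIs left out, 76 members still rose after stroke in microglia-like cells. By the G2 and M phase list the upper group of stroke cells was also deeper before thinning. Its medians were 13675 and 14417 UMIs, against 7532 and 7579 in the lower group. The part of depth in the difference of cycling cells was not tested beyond the thinning.

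The sexes were compared by a term that averages over sham and stroke. In the additive fit 0 of 84 members differed between male and female microglia-like cells, with edgeR or with DESeq2, and 0 had an unadjusted p below 0.05 with edgeR. Over all 13975 genes 0.179% were higher and 0.093% lower in males. Member differences in that fit ran from -0.16 to 0.23 on the log2 scale. Within a treatment they were wider. Male over female, they ran from -0.48 to 0.48 in the sham pools and from -0.44 to 0.27 in the stroke pools. With 1 pool per group, differences within a treatment were not tested. The rise after stroke was larger in the female pools for 65 of 84 members, with medians of 1.01 in females and 0.86 in males, and 66 members were lower in the female than in the male sham pool. The same counts were not made over all genes, so they are not read as a sex difference of the members.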

How the data were processed

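The deposited matrix of each pool holds raw UMI counts per gene and cell, made by the authors with Cell Ranger, whose version is 7.1.0 per the submitters' processing notes (with genome mm10) and 6.1.2 per the file headers. Intron counting was not given in the sources used here. Cells with at least 500 genes, 1000 UMIs and at most 10% mitochondrial UMIs were kept, and doublets were not removed. Clustering (scanpy 1.11.5, Leiden resolution 0.8, 2000 variable genes, 30 components, 15 neighbours) left the members out. Classes were named from marker lists, at least 3 markers detected and no excess of another class among the 10 leading genes. UMIs were summed per pool and class, scaled by TMM, filtered with filterByExpr and tested across all genes with edgeR 4.0.16 (two-sided, Benjamini-Hochberg, threshold 0.05). DESeq2 1.42.0 was an alternative. The labels give 1 pool per group, so spread between pools of the same group is not measured. In the microglia-like comparison of treatments the p-values take their spread from all genes, with 1 residual degree of freedom. Intervals are exact binomial or Poisson at 95% and cover counting error only. Thinning drew 3000 UMIs per cell and left out shallower cells. In 3 simulated draws with 200 changed genes, 98.7% of 4-fold rises and 77.2% of 2-fold rises were recovered in the microglia-like comparison of 13975 genes. The draws used the fitted spread, no sex effect and as many rises as falls. They therefore do not show how the calls behave when far more genes change or an abundant family moves one way. Named genes were the 10 members with the most UMIs, the 8 with the largest changes in each direction, related pairs, X-linked members and the 5 extremes of each other comparison. Members and lists were chosen with earlier results of these data known. Alternatives covered scaling, tool, filters, depth, clustering and each pool left out; the interaction, the sex term and 3 sets of cells were added after seeing the data. A few genes that these rules would name are not reported here.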

Additional observations from a re-analysis of the deposited data

Results flagged for a closer look

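In 71 of 84 members the change after stroke was larger in microglia-like than in dendritic cell-like cells by the interaction test (edgeR adjusted p below 0.05). Stroke and sham shares differed in opposite directions between classes: the member share was -1.62 and -0.243 percentage points (stroke minus sham, female and male) in dendritic cell-like cells, -2.63 and -2.13 in border-associated macrophage-like cells and -6.88 and -6.91 in monocyte-derived macrophage-like cells, while it was higher after stroke in microglia-like cells of both sexes. These differences of shares were not tested, and the sham pools held 6 and 18 monocyte-derived macrophage-like cells. Mostly different finer clusters held the dendritic cell-like and monocyte-derived macrophage-like classes in sham and stroke. At Leiden resolution 1.6 a Plac8 and Ly6c2-led macrophage-like cluster held 5 and 10 sham cells, while an Arg1-led and a Cd74-led cluster held 658 and 356 female and 332 and 217 male stroke cells. The Mgl2-led dendritic cell-like cluster held 55 and 112 sham cells, and the Ifitm1-led one held 0 sham and 108 and 80 stroke cells. Subset and treatment cannot be told apart in the shares of these classes, nor in the interaction.

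By immediate early and heat shock UMIs, the member share of the upper less that of the lower 25% of microglia-like cells was 0.186 and 0.172 percentage points in sham females and males and -2.25 and -3.2 in female and male stroke, a difference that was not tested. In stroke the upper 25% were the shallower cells before thinning, with medians of 6650 and 6330 UMIs against 11392.5 and 12022. Outside the members, 5 features named as ribosomal protein pseudogenes gave 125 and 122 CPM in female and male stroke against 74.4 and 86.3 in sham. In barcodes that failed quality control the member share was 8.65% and 8.64% in stroke against 6.80% and 6.61% in sham.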

How the results depend on the processing

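No paired analysis was possible because each group is 1 pool and the groups share only the number 1. The count of members that rose in microglia-like cells stayed within 1.5 times of 81 under every alternative run. The count that fell there was 2 with library totals, 1 after thinning to 3000 UMIs, 1 without cells of at least 3 cell cycle UMIs, and 0 to 1 with each pool left out.

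In dendritic cell-like cells the count that rose was 0 with library totals, 0 with DESeq2, 3 without a filter and 0 without cells rich in microglia markers, and the count that fell was 3 with library totals and 6 without those cells, where the median was -0.28. With each pool left out, 0 to 16 rose and 0 to 4 fell. In the macrophage-like comparison library totals gave 17 higher and 42 lower with a median of -0.10, DESeq2 gave 7 lower, and including the Spp1-led cluster gave 38 higher. In the comparison of dendritic cell-like with microglia-like cells 1 member was lower with library totals, 1 with DESeq2, 1 with the Spp1-led cluster and 1 without cells rich in microglia markers, and 0 to 1 with each pool left out. Library totals gave 5 lower members in cycling cells. The shares over all genes under the alternatives of this paragraph are not given here, so its counts are not read as results about the members. The interaction gave 9 to 78 members with each pool left out.

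The ratio of stroke to sham shares in microglia-like cells, 1.63 in females and 1.53 in males, was 1.55 and 1.48 after thinning, 1.68 and 1.59 without mitochondrial UMIs, 1.62 and 1.56 with the depth minimum of the male sham pool, 1.53 and 1.46 with stricter quality control, 1.65 and 1.52 as a median over cells, 1.6 and 1.61 at Leiden resolution 1.6 and 1.67 and 1.57 with the Spp1-led cluster. It was 1.61 in females when clustering used the members. At 1500 UMIs the difference between the upper and lower 25% of cells was 0.328 for S phase in female sham and 0.044 for chemokines in male sham, both of the opposite sign. Rpl7l1 ranged from -0.12 to 0.0044 with each pool left out. The causes of these shifts were not tested. With 1 pool of 4 mice per group, spread between mice is not measured, and members with under 3 UMIs in a class cannot be read there.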
